A study of Mus musculus with 5 samples.

Results

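The genes of cohesion protection and of the spindle checkpoint were followed through the purified male germ cells of this series: the shugoshins Sgol1 and Sgol2, separase (Espl1) and securin (Pttg1), the anaphase activator Cdc20, and the checkpoint genes Mad2l1, Bub1, Bub1b, Bub3 and Ttk. They were chosen by name, as the rows whose gene symbol equals 1 of these 10 symbols, and all 10 had exactly 1 row among the 56324 rows of the table. Polyadenylated RNA was sequenced from 3 samples of Spermatids, the haploid cells that follow meiosis, and from 2 samples of Spermatocytes, which are germ cells in meiosis. All 5 samples came from male C57Bl/6 mice aged 12 weeks, with no genetic change and no drug named in the labels, and both fractions were collected by gravity sedimentation (Sta-put), a method that sorts cells mainly by size. Whether each sample had its own animals is not stated, and the p-values below therefore rest on a spread between samples that may be only technical.

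As background, sister chromatids are held together by rings of cohesin until separase cuts them. Securin keeps separase inactive, and the spindle checkpoint keeps securin in place. At kinetochores without microtubules, Ttk stands at the top of the checkpoint, and Bub3 brings in Bub1 and Bub1b. Mad2l1, Bub1b and Bub3 hold Cdc20 and so stop it from switching on the anaphase-promoting complex. In meiosis cohesin has to be lost in steps, on the arms at the first division and at centromeres at the second, and shugoshins with the phosphatase PP2A shield centromeric cohesin in between. Spermatids come after both divisions. The labels give no stage for the Spermatocytes, so whether all of those cells came before both divisions is not known here. The title of the series is about intron retention in meiosis; introns were not analysed here, since the table has 1 value per gene.

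Most of these genes had lower normalized counts in Spermatids than in Spermatocytes. In Spermatids 7 of the 10 genes were lower, 1 was higher and 2 did not pass the test (limma on log2 of the normalized count plus 1, Benjamini-Hochberg adjusted p under 0.05 over 28370 genes). Among all genes tested, 36.5% were called lower and 40.6% higher, and 77.1% were called in either direction. A call in this comparison was therefore common, and 8 of 10 genes called is close to that background. The median log2 fold change of the 10 genes was -1.26, against 0.07 for all genes tested. The genes that fell were Sgol2, Bub1b, Mad2l1, Bub3, Pttg1, Cdc20 and Espl1, with falls between 3.99-fold and 1.76-fold, and 5 of them fell by at least 2-fold, as 28.7% of all genes tested did. Bub1 rose by 2.07-fold, and Ttk and Sgol1 did not pass the test. For all 7 genes that fell every Spermatid value lay under both Spermatocyte values, a separation in that direction seen in 41.5% of all genes tested. Counting both directions, the groups did not overlap in 8 of the 10 genes, against 85.8% of all genes. In these bulk samples, fewer cells of a type and less RNA per cell cannot be told apart.

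**Figure D1:**
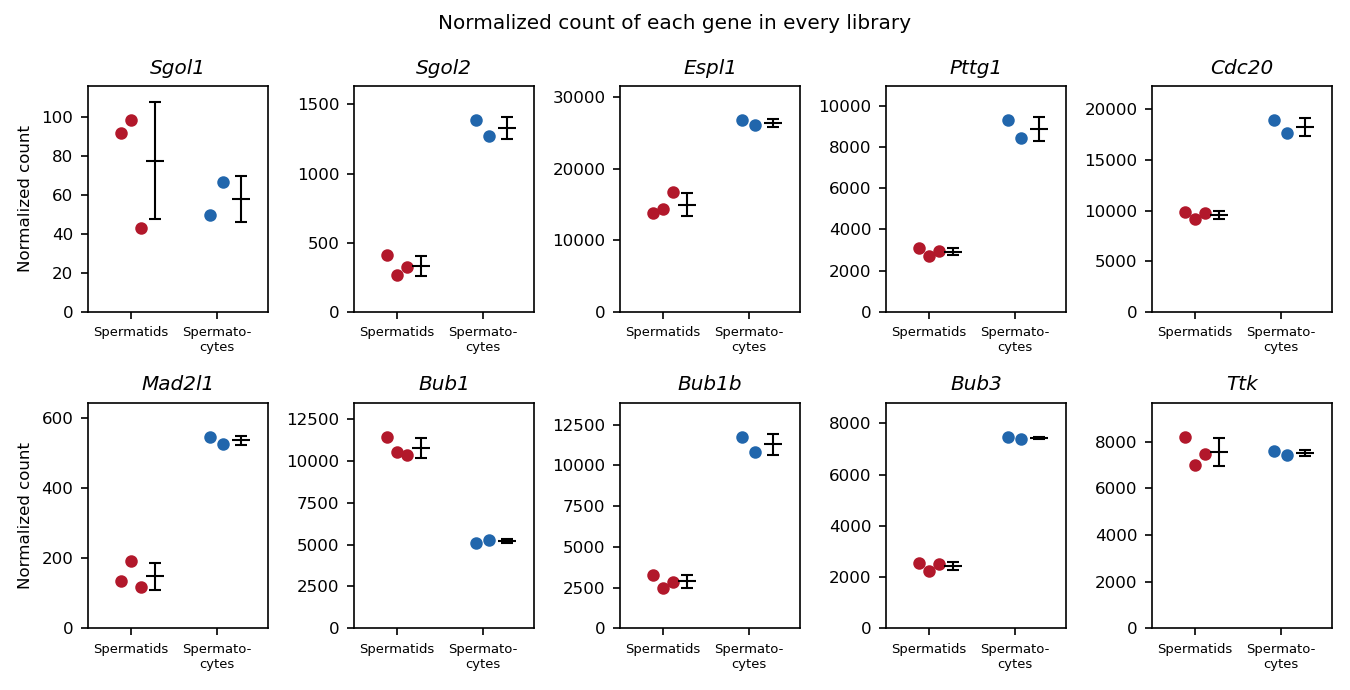
Normalized count (vertical axis, linear, from 0) of each of the 10 genes in the 3 Spermatid and 2 Spermatocyte libraries, 1 point per library, with the mean and SD as bars beside the points. The points of the groups are apart for 8 genes, with Bub1 the only 1 of these that is higher in Spermatids, and overlap for Sgol1 and Ttk.

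The shugoshins differed from each other in level and in pattern. Sgol2 (GSMG0000281, chromosome 1, 57985340 to 58026277, mm10), the shugoshin that protects centromeric cohesin in mouse meiosis, had normalized counts of 411, 264 and 324 in Spermatids, against 1384 and 1275 in Spermatocytes. No Spermatid library reached a Spermatocyte library, and the log2 fold change was -2.02 ± 0.20 (SE; limma adjusted p = 0.0001). Sgol1 (GSMG0017670, chromosome 17, 53674787 to 53689334), the shugoshin of mitotic centromeres, stood at 91.5, 98.1 and 43.0 in Spermatids, against 49.5 and 66.4 in Spermatocytes. These groups overlapped. The log2 fold change was 0.34, with a 95% interval from -0.65 to 1.33 (limma adjusted p = 0.48). Sgol1 rested on 41 to 99 reads per library, and its direction turned with equal library totals and with quantile normalization. The row of Sgol2 overlaps that of Kctd18 over 33619 of its 40938 bases. Kctd18 was also lower in Spermatids (155, 185 and 158, against 884 and 819), and because the strand setting of the counting is not given, its part in the Sgol2 value was not tested. The mouse genome carries a copy of Sgol2 on chromosome 8 (Sgo2b, in the table as Gm4975), and the row of that copy held 1 read over the 5 libraries.

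Separase and its inhibitor securin both fell, and securin fell more. Espl1 (GSMG0013688, chromosome 15, 102296293 to 102324356), the protease that opens the cohesin ring, was at 13774, 14404 and 16809 in Spermatids, against 26783 and 26077 in Spermatocytes. Pttg1 (GSMG0006559, chromosome 11, 43420244 to 43426248), its inhibitor and chaperone, was at 3088, 2717 and 2962 in Spermatids, against 9279.55 and 8439 in Spermatocytes. Both separations were complete, with log2 fold changes of -0.82 ± 0.11 for Espl1 and -1.60 ± 0.10 for Pttg1 (SE; limma adjusted p = 0.0004 and 1.2e-05). Espl1 had the smallest fall of the 7 and still kept 56.7% of its Spermatocyte mean in Spermatids, a fall of 1.76-fold, while Pttg1 fell by 3.03-fold.

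Cdc20 (GSMG0028269, chromosome 4, 118432901 to 118437350), which activates the anaphase-promoting complex and is what the checkpoint inhibits, was at 9843, 9157 and 9747 in Spermatids, against 18903 and 17633 in Spermatocytes. Its fall of 1.91-fold was clear of the spread within either group (log2 fold change -0.93 ± 0.09, SE; limma adjusted p = 7.3e-05). The row of Cdc20 overlaps 1578 bases of Elovl1, which had at most 598 counts in any library, far under the counts of Cdc20. Mad2l1 (GSMG0032012, chromosome 6, 66535423 to 66541107), the checkpoint protein that binds Cdc20, was at 135, 191 and 118 in Spermatids, against 547 and 528 in Spermatocytes, with a log2 fold change of -1.88 ± 0.23 (SE; limma adjusted p = 0.00031). The highest Spermatid value of Mad2l1 came from replicate 2, and even it was well under the lowest Spermatocyte value. Bub3 (GSMG0035253, chromosome 7, 131560379 to 131571898), the adaptor that brings Bub1 and Bub1b to kinetochores, was at 2530.25, 2234 and 2498 in Spermatids, against 7468 and 7407 in Spermatocytes (log2 fold change -1.62 ± 0.10, SE; limma adjusted p = 1e-05). An unnamed row lies inside the Bub3 row over 555 bases and held at most 237 counts in any library.

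The checkpoint genes Bub1, Bub1b and Ttk did not move together. Bub1 (GSMG0023501, chromosome 2, 127800200 to 127831868), whose mark on histone H2A recruits shugoshin to the centromere, was at 11425, 10504 and 10339.8 in Spermatids, against 5103 and 5269.65 in Spermatocytes, and was the only 1 of the 10 genes called higher (log2 fold change 1.05 ± 0.09, SE; limma adjusted p = 4.7e-05). Every Spermatid library held more Bub1 than either Spermatocyte library, a separation that 44.3% of all genes tested showed in this direction. With each library rescaled to the same total, Bub1 had a log2 fold change of 0.40 (limma adjusted p = 0.0052). Quantile normalization gave 0.35 (limma adjusted p = 0.0061), still past the threshold. Bub1b (GSMG0021605, chromosome 2, 118598211 to 118641592), the related gene of BubR1, a part of the complex that inhibits Cdc20, was at 3269.79, 2505 and 2857 in Spermatids, against 11750.5 and 10844 in Spermatocytes (log2 fold change -1.98 ± 0.13, SE; limma adjusted p = 1.5e-05). The paralogs thus lay on opposite sides, with Bub1 at 207% and Bub1b at 25.5% of their Spermatocyte means. Ttk (GSMG0039871, chromosome 9, 83834689 to 83872390), the Mps1 kinase at the top of the checkpoint, was at 8203, 7006 and 7474 in Spermatids, against 7613 and 7425 in Spermatocytes. Its groups overlapped. With the deposited scaling Ttk had a log2 fold change of 0.0052, with a 95% interval from -0.23 to 0.24 (limma adjusted p = 0.96). It was called lower at -0.64 with equal library totals (limma adjusted p = 0.00052) and at -0.72 under quantile normalization (limma adjusted p = 0.00017).

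**Figure D2:**
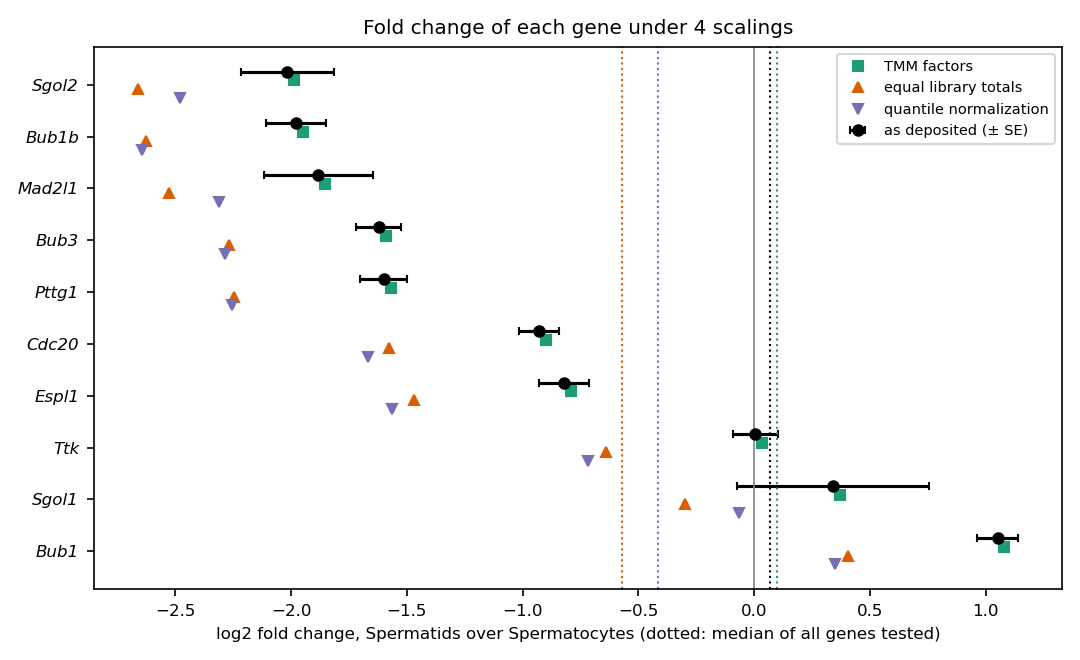
log2 fold change of Spermatids over Spermatocytes (horizontal axis) for each gene with the deposited scaling (circles, with SE) and with TMM factors, equal library totals and quantile normalization; dotted lines show the median of all genes under the same scaling. The 7 genes that fell and Bub1 stay on their side of 0 under all 4 scalings, while Ttk and Sgol1 cross it.

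The total of the normalized counts was larger in Spermatids (80600836 to 96511989 per library) than in Spermatocytes (53899393 and 56855924), so directions depend on how libraries are scaled. Equal totals moved the median log2 fold change of all genes from 0.07 to -0.57, and that of the 10 genes from -1.26 to -1.91. Against that shift, Ttk at -0.64 lay near the median of all genes, and Bub1 at 0.40 lay above it. The 7 genes that fell lay under the median of all genes with each of the 4 scalings.

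Ratios within a library do not depend on its scaling. The 4 ratios given here, from counts per kilobase of transcript, were chosen after the values were seen, and are a description with no test. Bub1 to Bub1b was 3.75, 4.50 and 3.88 in Spermatids, against 0.466 and 0.521 in Spermatocytes, an 8.18-fold higher ratio. Espl1 to Pttg1 was 0.635, 0.755 and 0.808 in Spermatids, against 0.411 and 0.440 in Spermatocytes. Each of these ratios was higher in every Spermatid library than in either Spermatocyte library. Sgol2 to Sgol1 was 3.30, 1.97 and 5.54 in Spermatids, against 20.5 and 14.1 in Spermatocytes, where Sgol1 rested on 41 to 99 reads per library. Cdc20 to Mad2l1 was 70.2, 46.1 and 79.2 in Spermatids, against 33.2 and 32.1 in Spermatocytes. None of the 4 overlapped between the groups, which is read as no result, since the pairs were picked for their values and 85.8% of single genes did not overlap either.

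**Figure D3:**
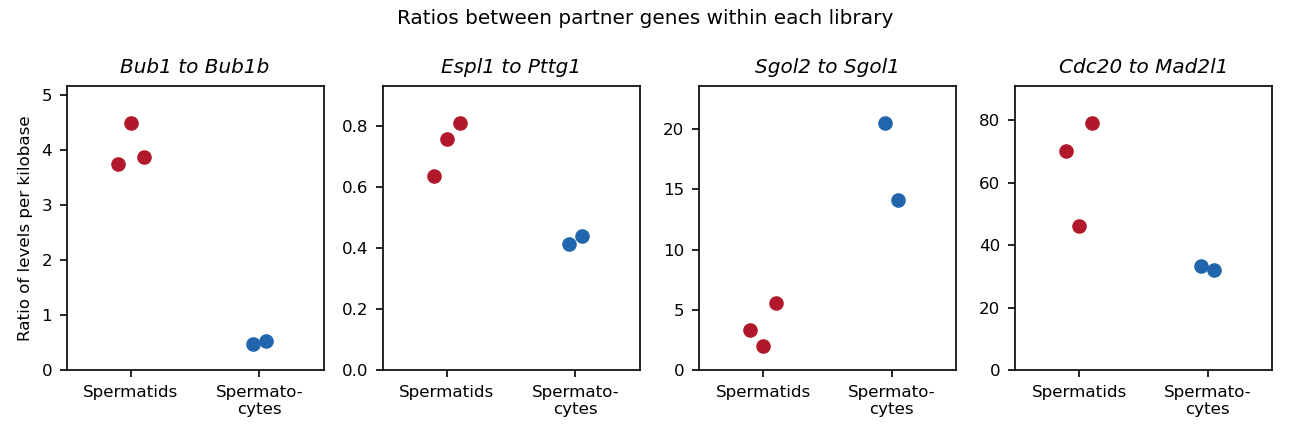
Ratio of the normalized counts per kilobase of transcript between 4 pairs of partner genes (vertical axes, linear, from 0) in each library, 1 point per library. The Bub1 to Bub1b ratio lies between 3.75 and 4.50 in Spermatids and between 0.466 and 0.521 in Spermatocytes.

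Levels between genes were compared per kilobase of the transcript annotated in GENCODE vM21. In Spermatids the order was Cdc20 (5344 ± 207, SD, n = 3), Bub1, Pttg1, Ttk, Espl1, Bub3, Bub1b, Mad2l1, Sgol2 and Sgol1 (21.4 ± 8.30). Its neighbours Bub1 and Pttg1, Ttk and Espl1, and Mad2l1 and Sgol2 overlapped in their values. In Spermatocytes it was Cdc20 (10188 ± 501, SD, n = 2), Pttg1 (9345 ± 627), Espl1, Bub3, Bub1b, Ttk, Bub1, Mad2l1, Sgol2 and Sgol1 (16.0 ± 3.28), and no neighbours overlapped. Bub1 made the largest move, with the second level per kilobase in Spermatids and the seventh in Spermatocytes. Of the 45 pairs of genes, 8 changed their order between the cell types. Both shugoshins and Mad2l1 were the lowest 3 of the 10 in either cell type, well under the other checkpoint genes. Among all tested genes with a transcript length, Cdc20 stood at percentiles 90.1 to 91.2 in Spermatids and near 97.6 in Spermatocytes, and Sgol1 at percentiles 9.95 to 20.2 in Spermatids and at 20.3 and 23.3 in Spermatocytes.

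**Figure D4:**
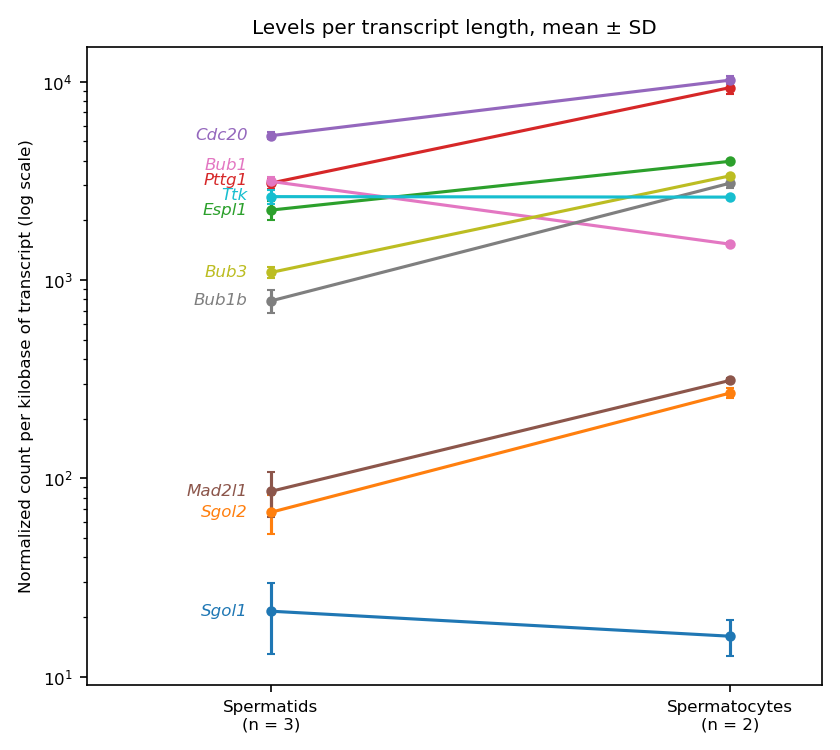
Normalized count per kilobase of transcript (vertical axis, log scale) of the 10 genes in Spermatids (left, n = 3) and Spermatocytes (right, n = 2), with the mean and SD. The Spermatid end of the line is the lower one for 7 genes and the higher one for Bub1 and, within overlapping values, Sgol1; Ttk is at 2634 in Spermatids and 2619 in Spermatocytes.

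The stretches around the start sites are shown for the gene that rose, for its paralog that fell, for Cdc20 and Espl1, which fell less, and for Ttk, which did not pass the test, since many genes of the cell division cycle carry a CHR element (TTTGAA) near a CCAAT box. All 10 genes matched an entry of the RefSeq table (GRCm38.p6), from 250 bases before to 50 bases after the annotated start. Each sequence is written in the direction of its gene, and capitals mark TTTGAA and also the CCAAT box and the MYB core, AACGG, on either strand.
Bub1, chr2:127831810-127832109, minus strand: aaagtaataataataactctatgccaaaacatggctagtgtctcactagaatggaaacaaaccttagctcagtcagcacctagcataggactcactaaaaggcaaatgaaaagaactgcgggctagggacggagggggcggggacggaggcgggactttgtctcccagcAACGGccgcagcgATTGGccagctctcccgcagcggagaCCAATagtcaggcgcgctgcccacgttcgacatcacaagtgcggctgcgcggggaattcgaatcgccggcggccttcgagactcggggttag
Bub1b, chr2:118597961-118598260, plus strand: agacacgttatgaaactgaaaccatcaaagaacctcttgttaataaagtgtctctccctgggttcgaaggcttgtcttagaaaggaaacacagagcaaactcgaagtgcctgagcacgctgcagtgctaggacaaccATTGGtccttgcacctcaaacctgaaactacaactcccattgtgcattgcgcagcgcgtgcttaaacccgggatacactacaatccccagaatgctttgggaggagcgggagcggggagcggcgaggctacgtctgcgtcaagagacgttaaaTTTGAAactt
Cdc20, chr4:118437294-118437593, minus strand: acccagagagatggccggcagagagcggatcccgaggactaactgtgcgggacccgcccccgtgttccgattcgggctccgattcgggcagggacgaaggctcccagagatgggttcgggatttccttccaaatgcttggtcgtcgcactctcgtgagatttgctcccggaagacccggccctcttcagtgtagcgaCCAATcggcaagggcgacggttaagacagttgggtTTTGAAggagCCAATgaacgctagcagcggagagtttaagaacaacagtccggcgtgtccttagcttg
Espl1, chr15:102296043-102296342, plus strand: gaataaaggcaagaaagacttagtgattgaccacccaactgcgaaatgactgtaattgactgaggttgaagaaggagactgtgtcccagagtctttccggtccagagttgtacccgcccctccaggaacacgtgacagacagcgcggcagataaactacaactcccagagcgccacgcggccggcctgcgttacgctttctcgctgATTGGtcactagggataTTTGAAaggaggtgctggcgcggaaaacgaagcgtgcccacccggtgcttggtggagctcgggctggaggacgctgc
Ttk, chr9:83834439-83834738, plus strand: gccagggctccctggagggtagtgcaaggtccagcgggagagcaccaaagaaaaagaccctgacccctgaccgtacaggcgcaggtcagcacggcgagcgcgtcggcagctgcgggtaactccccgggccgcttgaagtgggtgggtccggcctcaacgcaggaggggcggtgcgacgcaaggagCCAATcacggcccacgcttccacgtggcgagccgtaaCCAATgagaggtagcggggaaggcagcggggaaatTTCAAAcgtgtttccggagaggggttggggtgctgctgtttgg

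TTTGAA or its complement was present in 5 of the 10 genes (Espl1, Cdc20, Bub1b, Bub3 and Ttk), against 17.9% of 32851 promoters in the table. The 10 genes have 12 promoters, and a gene was counted if any of its promoters held the sequence. The shares of the table are of single promoters, so the units differ here and in the counts that follow. CCAAT or its complement was present in 8 of the 10, all but Pttg1 and Mad2l1, against 37.4%. The MYB core was present in Bub1 and Bub3, against 17.4% of promoters, and neither TTTAAA (13.2%) nor the E2F sequence TTTGGCG (1.6%) was found in any of the 10. No match overlapped another. In Cdc20 the TTTGAA began 18 bases before the start site, between CCAAT boxes that began 53 and 8 bases before the start site. In Espl1 the TTTGAA began 27 bases before the start site. A CCAAT box in the opposite direction began 44 bases before the Espl1 start site. Bub1, the gene that rose, had no TTTGAA in this window but a MYB core and a pair of CCAAT boxes. Ttk had TTTGAA in the opposite direction at base 8 after the start. It was not called with the deposited scaling but was called lower with equal totals and quantile normalization. The other 4 genes with this sequence were called lower with all 3 of these scalings. So were Sgol2, Mad2l1 and Pttg1, which had no TTTGAA in this window. Whether the sequence has a part in these changes was not tested. A match is a description of letters and not a measured binding site.

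Other genes of the same machinery were counted from lists drawn up with earlier results of these data known. Of 17 checkpoint partners and outer kinetochore genes, 12 were lower in Spermatids and 3 higher, with a median log2 fold change of -1.19, beside the -1.26 of the 10 genes and the 0.07 of all genes tested. With equal totals 13 were lower and 1 higher. As a background for these lists, 36.5% of all genes were lower and 40.6% higher with the deposited scaling, and 49.4% were lower and 30.5% higher with equal totals. Zwilch, a subunit of the complex that brings dynein to kinetochores, fell most, to 1082 ± 77.6 (SD, n = 3) in Spermatids, against 5957 ± 88.5 (SD, n = 2) in Spermatocytes. Nuf2, of the complex that holds microtubules, was at 5592 ± 1140 in Spermatids and 8074 ± 322 in Spermatocytes, and Casc5, the kinetochore scaffold for Bub1 and Bub1b, at 2215 ± 690.2 in Spermatids and 6226 ± 677 in Spermatocytes, and both passed the test as lower. Mad2l1bp, whose protein takes Mad2l1 out of the checkpoint complex, went the other way from Mad2l1, with 2309 ± 90.9 in Spermatids and 849.9 ± 33.6 in Spermatocytes (log2 fold change 1.44, limma adjusted p = 2.0e-05). Of 6 measured genes of the chromosomal passenger complex and centromere kinases, 4 were lower and the other 2 did not pass the test, with a median of -0.66. Aurkb, the kinase of the complex in mitosis, fell to 323 ± 20.6 in Spermatids, against 1819 ± 172 in Spermatocytes. Birc5 fell least of the 4, to 5499 ± 442 in Spermatids, against 6772 ± 651 in Spermatocytes (log2 fold change -0.30, limma adjusted p = 0.041). Aurka, a kinase of spindle poles, was at 11924 ± 1444 in Spermatids and 13214 ± 773 in Spermatocytes, and Incenp, the scaffold of the complex, at 7709 ± 375 in Spermatids and 6551 ± 457 in Spermatocytes. Neither passed the test with the deposited scaling, and both were called lower with equal totals (log2 fold changes -0.80 and -0.41).

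The anaphase-promoting complex is the enzyme that Cdc20 activates. Of 19 genes of the complex, its activators and inhibitors, 7 were lower in Spermatids and 5 higher, with a median of 0.03. With equal totals 13 were lower and 5 higher. Among all genes tested 36.5% were lower and 40.6% higher, with a median of 0.07. With equal totals 49.4% of all genes were lower and 30.5% higher. The share called lower and the median with the deposited scaling lay near those of all genes, and no result about the complex is read from them. Fzr1, the activator that takes over from Cdc20 as mitosis ends, rose while Cdc20 fell, with 20705 ± 1753 (SD, n = 3) in Spermatids and 9438 ± 379 (SD, n = 2) in Spermatocytes (log2 fold change 1.13, limma adjusted p = 6.4e-05). Fbxo43, the inhibitor known as Emi2, fell most, to 1039 ± 442 in Spermatids, against 9378 ± 2440.3 in Spermatocytes, and the subunit gene Anapc10 rose most, to 2889 ± 188 in Spermatids, against 1014 ± 31.5 in Spermatocytes. Ube2s, the enzyme that extends ubiquitin chains for the complex, was at 15863 ± 488 in Spermatids and 14239.7 ± 2162 in Spermatocytes, and did not pass the test (limma adjusted p = 0.22), while equal totals put it at -0.48 on the log2 scale, past the threshold as lower. Of 12 genes of PP2A subunits and other shugoshin partners, 6 were higher and 3 lower with the deposited scaling, but 2 were higher and 7 lower with equal totals. The same shares of all genes are the background for these counts. Gsg2, the gene of haspin, whose histone mark helps place centromeric proteins, was at 152033 ± 13685 in Spermatids and 69040.5 ± 2816 in Spermatocytes. Ppp2r5a, a regulatory subunit of PP2A, was at 1806, 462 and 565 in Spermatids, against 80.8 and 92.5 in Spermatocytes, with replicate 1 far above the other Spermatid libraries. Ppp2ca, a catalytic subunit, fell to 492 ± 44.8 in Spermatids, against 1382 ± 27.5 in Spermatocytes. Ppp2r5c was at 30705 ± 3538 in Spermatids and 24589.9 ± 1453 in Spermatocytes, called higher at a log2 fold change of 0.32 with the deposited scaling and lower at -0.33 with equal totals.

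The cohesin ring is what the shugoshins protect and separase cuts. Of 18 genes of cohesin and its regulators, 11 were higher in Spermatids and 3 lower, with a median log2 fold change of 0.70; with equal totals 6 were higher and 6 lower, a share of higher genes near the 30.5% of all genes. Rec8, the meiotic subunit that separase cuts, was highest by fold change at 20116 ± 1995 (SD, n = 3) in Spermatids and 572 ± 119 (SD, n = 2) in Spermatocytes, and Esco1, an acetyltransferase of cohesin, was lowest at 429 ± 53.1 in Spermatids and 1004 ± 35.5 in Spermatocytes. The most abundant were the meiotic subunit genes Stag3 and Smc1b, with log2 fold changes of 0.45 and 1.77. Stag3 was called higher with the deposited scaling and stood at -0.19 with equal totals, short of the threshold (limma adjusted p = 0.11).

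**Figure D5:**
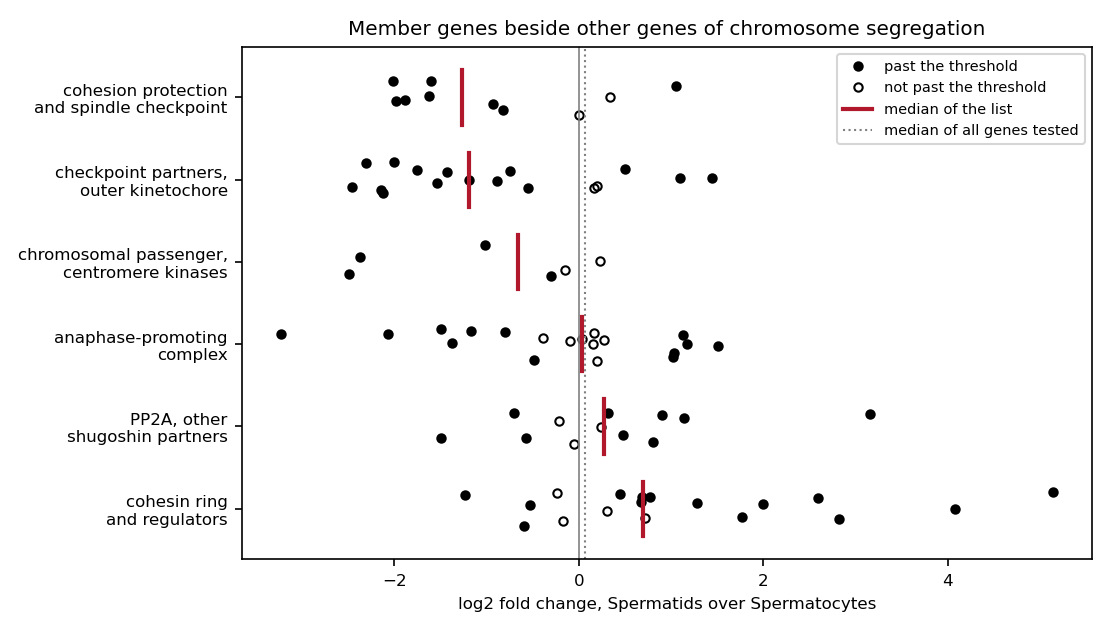
log2 fold change of Spermatids over Spermatocytes (horizontal axis) for the 10 genes and for 5 lists of related genes, 1 point per gene, filled where the limma adjusted p was under 0.05, with the median of each list as a red bar. The medians are -1.26 for the 10 genes, -1.19 for checkpoint partners and outer kinetochore and 0.70 for the cohesin ring.

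The fractions were checked against marker genes of the cells they could hold. As a background for the counts of markers, 40.6% of all genes tested were called higher in Spermatids and 36.5% lower. Of 10 Spermatocyte markers 6 were lower in Spermatids and 4 did not pass the test, and what Spermatids kept of the Spermatocyte mean was 1.70% for Pou5f2, 31.5% for Sycp3 and 103% for Ybx3. The 7 genes that fell kept 25.0% to 56.7%. The range of the markers is so wide that most falls would lie inside it, and no conclusion is drawn from it. All 9 matched Spermatid markers were higher in Spermatids. Their summed count was 1.60e+06, 570573 and 546153 in Spermatid replicates 1, 2 and 3, against 16293 and 12557 in Spermatocytes. Replicate 1 was far above the other Spermatid libraries for Prm1, Prm2, Tnp1, Tnp2 and Tssk6, but not for Acrv1, Spaca1, Catsper3 and Hils1. Whether the Spermatid libraries differ in their mix of stages was not tested. Markers of Sertoli cells, the somatic cells that nurse germ cells, were lower in Spermatids for 10 of 10 genes, with summed counts of 975 to 1255 in Spermatids, against 17771 and 24708 in Spermatocytes, and those of Leydig cells for 5 of 5, with sums of 104 to 281 in Spermatids, against 2237 and 2761 in Spermatocytes. Spermatogonial markers were higher in Spermatids for 5 of 10 genes and lower for 2, with sums of 2501 to 3119 in Spermatids, against 1905 and 2276 in Spermatocytes. Markers of mitotic proliferation were higher for 2 of 6 and lower for 2, with sums of 11323 to 12342 in Spermatids, against 15399.9 and 16130.1 in Spermatocytes. The counts of higher spermatogonial and proliferation markers lay near the share of all genes and are not read as a result. Blood and macrophage markers were higher for 4 of 6, with sums of 681 to 1378 in Spermatids, against 89.4 and 139 in Spermatocytes. No marker was at 0 in every library of a group, and the part of these cells in the values of the 10 genes was not tested.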

How the data were processed

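The authors deposited 1 table with a normalized signal per gene and library. These are gene counts divided by a size factor, and the submitters' processing notes name DESeq, STAR 2.4.0, SAMtools, Picard, FastQC and mm10. No source used here names the read counter or its strand setting, so reads in overlapping rows may be shared. Dividing each column by its smallest step gave whole numbers within 0.001 for all values, and so 52784231 to 84361908 reads per library.

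Samples were grouped by their cell type label; replicate numbers follow accession order and carry no pairing. Genes with a mean of at least 10 were fitted with limma 3.58.1 (R 4.3.3) on log2(value + 1) with a mean-variance trend, over all 28370 genes at once. Folds on this scale understate changes of low genes. Alternatives were edgeR 4.0.16 (quasi-likelihood) and DESeq2 1.42.0 on the recovered reads, other scalings, filters and a pseudocount of 10, and each library left out in turn. The fit was tested on simulated data in which 200 genes were changed. It called 41.8% of the genes changed 2-fold and 78% of those changed 4-fold, and 4.54% of unchanged genes had a limma p under 0.05. Far more genes were called in the real data, so these shares do not carry over to it. The 10 genes and the lists were chosen with earlier results of these data known. In each list the 2 genes with the highest mean and those with the highest and lowest fold change past the threshold were named. Meikin was named outside this rule. Older symbols were matched through RefSeq; Plk1 shares its row with another gene and was not used. Lengths came from the longest principal GENCODE vM21 transcript within 1000 bases of the row, found for 22755 of 23637 single symbols. Summaries and plots were made in Python 3.11.15 with scipy 1.17.1 and matplotlib 3.10.9.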

Additional observations from a re-analysis of the deposited data

How the results depend on the processing

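Of 139 values of the 10 fold changes under 14 alternative settings, 133 kept their direction and their side of the threshold. The other 6 turned sign: Sgol1 at -0.30 with equal library totals and -0.064 after quantile normalization, and Ttk at -0.64 and -0.72 with these scalings, at -0.055 without Spermatid replicate 1 and at -0.013 without Spermatocyte replicate 2. Both scalings also shift the median of all genes. With libraries left out in turn Ttk ran from -0.055 to 0.059 and Sgol1 from 0.13 to 0.71, neither past the threshold, and the counts of 1 gene higher and 7 lower were the same in each. With equal totals and after quantile normalization 8 genes were lower, Ttk among them. The share of all genes tested that was called lower rose as well. It was 36.5% as deposited, 49.4% when totals were made equal and 46.9% under quantile normalization. The added call of Ttk therefore came with a shift of the whole table. With a mean of at least 100, Sgol1 was not tested. The 10359 genes lower over the whole table became 17263 with no filter on low values, where 48199 genes were tested, and 6029 with a mean of at least 100, where 17295 were tested. The share of all calls that were higher in Spermatids was 52.6% as deposited, 38.2% with equal totals and 41.3% after quantile normalization. edgeR called 21931 genes and DESeq2 21759, against 21871 with limma, and both gave the same calls for the 10 genes. No paired analysis was possible because the labels give the groups no shared replicate numbers. No symbol of the 10 had several rows, so summing rows was not run. Sgol1 had 41 to 99 reads per library, and the part of depth in its wide interval was not tested.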

Other observations

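The genes most alike in pattern to the gene that rose and to the one that fell most were looked up over the 5 libraries, by the distance between log2 profiles centred on their own means, among the 11963 genes with a mean of at least 100 whose row has a single symbol that is no clone, locus or predicted-gene name. Nearest to Bub1 were Stt3b (distance 0.056), Lsm12 (0.056) and Isca2 (0.057), with log2 fold changes of 1.05, 1.04 and 1.07. Nearest to Sgol2 were Lipg (distance 0.13), Ddx6 (0.14) and Psg17 (0.16), with log2 fold changes of -1.94, -2.04 and -2.11.

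Differences between libraries of a cell type were taken with their sign, so their median shows an offset and not the spread. Spermatid replicate 1 minus the mean of replicates 2 and 3 had a median of 0.13 on the log2 scale over the 10 genes. Over all genes tested it was 0.02. Single genes of the 10 ran from -0.18 for Espl1 to 0.49 for Sgol2 in this difference. Spermatid replicate 2 minus replicate 3 had a median of -0.11 over the 10 genes, against 0.03 over all genes. Spermatocyte replicate 1 minus replicate 2 had 0.04, against 0.03. Mad2l1 was 0.69 higher on the log2 scale in Spermatid replicate 2 than in replicate 3, and Sgol1 1.17 higher, on 193 and 113 reads for Mad2l1 and on 99 and 41 reads for Sgol1. Meikin, whose protein works with shugoshin at meiotic kinetochores, is listed in the table under an older clone name. With the deposited scaling it had a log2 fold change of -0.22 (limma adjusted p = 0.087), against -2.02 for Sgol2. Meikin was called lower at -0.86 with equal totals (limma adjusted p = 0.00032). Quantile normalization gave -0.72 for Meikin, also called lower (limma adjusted p = 0.00035).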
